A study of Nothobranchius furzeri with 12 samples.

Results

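This account is of 162 genes of the intestine of the turquoise killifish Nothobranchius furzeri whose transcripts were lower in old, fully fed fish than in both young adult and old, fasted fish. They are 162 of the 25475 genes in the deposited table of counts, and 1.08% of the 15034 genes with a mean of at least 1 CPM (counts scaled to library totals of 1000000) at 10 weeks. All fish were wild-type males of the short-lived strain GRZ, and each group is given here with 4 libraries. W10 fish were killed at 10 weeks after feeding in excess. W20 AL fish were fed in excess every day (ad libitum) until 20 weeks. W20 IF fish received food in excess only every other day from 10 to 20 weeks, a form of intermittent fasting that began in adult life, and were then killed. The labels and the study's text call the tissue whole intestine, whereas a sentence of the study's methods has the small intestine dissected. Each library holds RNA from all cell types of the dissected piece.

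The intestinal epithelium is renewed throughout life from dividing cells, and its absorptive and secretory cells, together with muscle, nerve, blood and immune cells, contribute to RNA from the whole organ. Digestion and uptake of nutrients depend on genes that respond to food and to the time since the last meal, so that age and feeding can both move transcript levels in this tissue. In RNA from whole tissue, fewer cells of a type and less RNA per cell cannot be told apart. The Ensembl identifiers in the table were not paired with gene names. Of them, 0 matched the 38438 genes of the RefSeq table, the only source of names matched here. For this reason the labelled tissue was not checked against its marker genes, and no sequence is shown. The 21 lists of genes of digestion, uptake, cell division, circadian rhythm and cell types were not counted. Members are given by their rank in mean W10 level, and 4 of them by identifier.

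The members were selected on measured values. A member had a mean of at least 1 CPM in W10, its means in W10 and in W20 IF were each at least 1.5 times its mean in W20 AL, and its highest W20 AL library lay below its lowest W10 and its lowest W20 IF library. W20 IF replicate 4 was not used for the selection. It held 1512262 counts and at least 1 count for 17059 genes, while the other 11 libraries held 23226098 to 26986542 counts with 22178 to 22701 genes. In replicate 4 a count of 0 allows a level of up to 1.98 CPM, in the others of up to 0.111 to 0.129 CPM (3 counts of the total, for counting error only). The study's methods say that a fasted fish was dropped for poor quality, without saying which, and count as many fasted fish after this as there are W20 IF libraries here, but more fish in the other groups than libraries used here. Whether replicate 4 is the dropped fish is not known. The 3 members nearest the limit of 1.5 had a smaller ratio of 1.503, 1.505 and 1.506, and the 3 nearest genes outside it, which met the other conditions, had 1.499, 1.499 and 1.491. The rule took 329 genes, 148 of them members, when W10 replicate 1 was left out. It took 306 genes, 157 of them members, when the library left out was W20 AL replicate 1.

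Differences from W20 AL are those on which the members were selected, and are given throughout as a description. Mean W10 levels ran from 1.08 to 1659 CPM with a median of 8.88 CPM, and 86 members lay under 10 CPM and 19 at 100 CPM or more. The ratio of W10 to W20 AL ran from 1.503 to 19.3 (median 1.94). The ratio of W20 IF (replicates 1 to 3) to W20 AL ran from 1.52 to 10.99 (median 2.22). The smaller of both ratios lay under 2 in 95 members, between 2 and 3 in 20, between 3 and 5 in 15 and above 5 in 32. Most members thus stood near the limit of the selection, and a smaller number far from it.

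Of the 32 members with a smaller ratio above 5, 30 belonged to one set of genes that varied together from fish to fish. Of those between 2 and 5, 1 did. In 31 members, the ratio to the most abundant member was nearly the same in all libraries, with a standard deviation of the log2 ratio of at most 0.59 over the 11 libraries (log2 of CPM + 0.1). The next gene had 0.97, and the median of all genes with at least 1 CPM in W10 was 1.97. The log2 CPM of the most abundant member itself had a standard deviation of 1.97, so an unchanging gene would show about this value. No gene with at least 1 CPM in W10 outside the members had a standard deviation under 0.75. That limit was set in the gap between 0.59 and 0.97 after the values had been seen. A gene in near-constant ratio to the most abundant member would mostly meet the rule itself, so nothing is read from the absence of others. The set held 13 of the 20 most abundant members, all of the 10 with the largest smaller ratio, and 29 of the 31 with the largest. It is called the near-constant set in what follows, and the 131 remaining members are called the other members. Genes in near-constant ratio to the most abundant member largely share its ratios to W20 AL, its order of libraries and its spread. These traits of the set thus follow largely from how it was found. They are given as a description, also where the other members are set beside it. With the second most abundant member as the reference, the same 31 genes were found. Without W20 AL replicate 4 there were 39, all 31 among them.

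**Figure D1:**
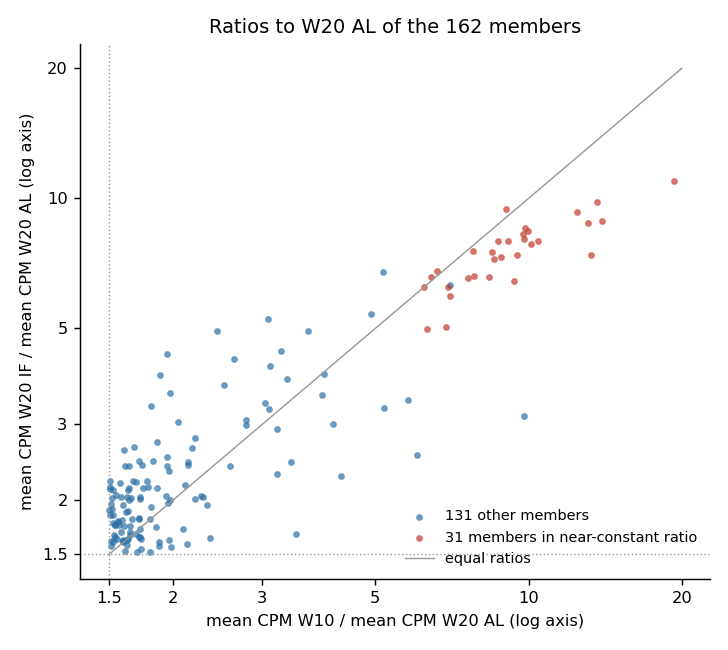
Ratio of mean CPM of W10 (horizontal) and of W20 IF replicates 1 to 3 (vertical) to mean CPM of W20 AL for each of the 162 members, on log axes, with the limit of 1.5 dotted. The 31 members of the near-constant set (red) lie at 6.22 to 19.3 times W20 AL in W10 and mostly below the line of equal ratios, while most of the 131 other members (blue) lie near the limit.

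The most abundant member, ENSNFUG00015003267, had 2721, 1759, 950 and 1207 CPM in W10 replicates 1 to 4. In W20 AL it had 162, 242, 241 and 30.5 CPM. In W20 IF replicates 1 to 3 it had 892, 1897 and 1546 CPM, and in replicate 4 it had 1277 CPM from 1931 counts. Its highest and lowest library were 89.1-fold apart, and the fall in W20 AL was deepest in replicate 4. The second most abundant member, ENSNFUG00015003376, had 1432, 983, 514 and 670 CPM in W10, 96.9, 156, 146 and 21.3 CPM in W20 AL, and 462, 989, 826 and 553 CPM in W20 IF. Libraries stood in nearly the same order for both genes, and the W10 and W20 IF libraries of both overlapped. The largest smaller ratio was that of the member of rank 32, which had 33.0 to 86.9 CPM in W10, 0.281 to 4.07 CPM in W20 AL and 15.3 to 46.3 CPM in W20 IF replicates 1 to 3. At the other end of the set, the member of rank 149 had 0.948 to 2.72 CPM in W10, 0 to 0.291 CPM in W20 AL and 0.817 to 1.64 CPM in W20 IF replicates 1 to 3. Most of the set was more abundant, with a median W10 mean of 92.2 CPM and 4 members under 10 CPM.

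Summed over the near-constant set, the level was 12766, 8204, 4458 and 5667 CPM in W10, which is 0.446 to 1.28% of all counts of a library. It was 801, 1285, 1229 and 196 CPM in W20 AL (0.0196 to 0.128%) and 3923, 8666, 6901 and 6113 CPM in W20 IF (0.392 to 0.867%). The mean of W20 AL was 878 ± 503 CPM and that of W10 was 7774 ± 3676 CPM (SD, n = 4 each). The groups W10 and W20 IF overlapped, and W20 AL lay below both. In each of the 31 genes, W10 replicate 1 was the highest and replicate 3 the lowest library of its group, W20 AL replicate 4 was the lowest of its group, and replicate 1 was the lowest of W20 IF replicates 1 to 3. The spread between fish was wide. The coefficient of variation had a median over the 31 genes of 47.0% in W10, 60.5% in W20 AL and 37.6% in W20 IF, against 12.2, 12.5 and 15.03% over the 18027 genes that passed the filter on low counts. The deviations of its genes from the group means had a median pairwise correlation of 0.976 over the 11 libraries, against 0.0363 for pairs of all genes tested (every 6th gene). All pairs share the libraries and their totals, and the way the set was found makes its correlation high. The same choice also passes the wide spread and the library order of the most abundant member on to the set.

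**Figure D2:**
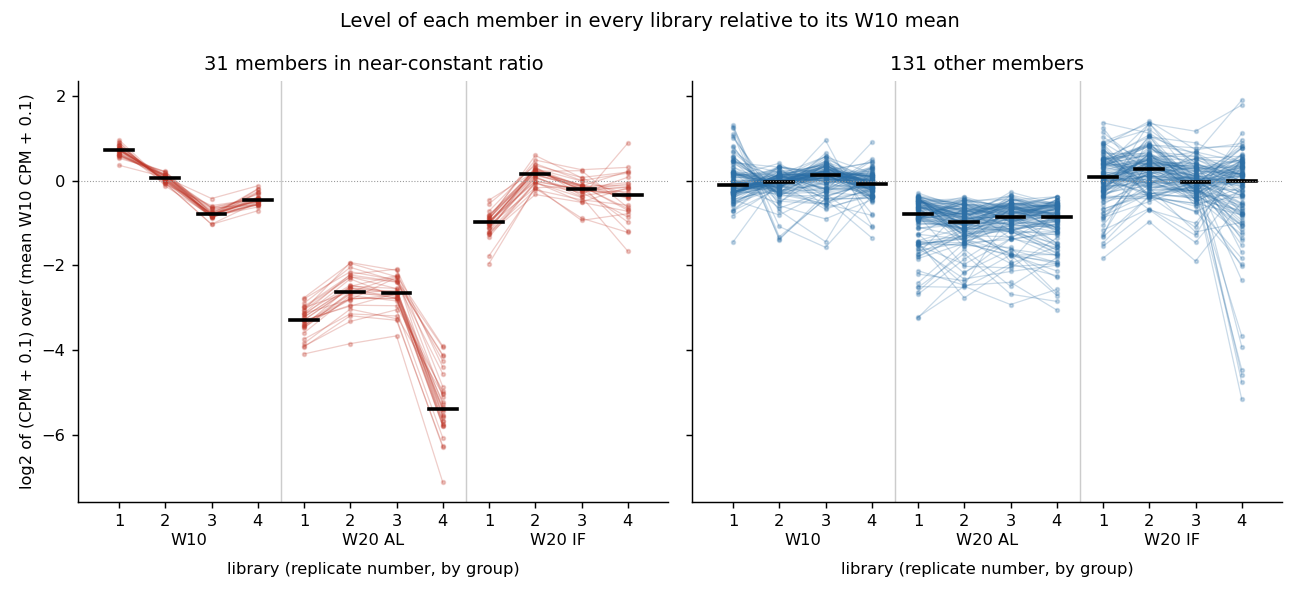
Level of each member in each of the 12 libraries as log2 of CPM (+ 0.1) relative to its mean in W10, for the near-constant set (left) and the other members (right), with thin lines joining the values of a gene within a group and black bars at the median. The left panel moves up and down as a whole between fish, lowest in W20 AL replicate 4, while the medians of the right panel are nearly level within groups, and the values at the bottom right are members with 0 counts in the shallow W20 IF replicate 4.

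The ratios within the set were not equally steady in all libraries. For the 30 genes set against the most abundant one, the shift of the log2 ratio in a library was taken from its mean over the remaining libraries. The median shift lay between -0.17 and 0.17 in 10 of the 11 libraries, and all 30 were within 2-fold there. It was above 0 in W20 AL replicates 1 to 3 (0.036, 0.17 and 0.093) and below 0 in every W10 library (-0.075 to -0.032). In W20 IF replicates 1 to 3 it was below 0 as well (-0.17, -0.12 and -0.16). In W20 AL replicate 4, where the set was lowest, the median shift was 0.38 (from -0.89 to 1.78). There 24 of the 30 ratios were above their mean, and 22 were within 2-fold. The member of rank 149 had 0 counts in that library. The added 0.1 CPM raises the ratios of genes at low levels there, and its part in the shift was not tested. The members of ranks 22 and 23 had almost equal levels throughout, with a ratio of 0.964 to 1.11 over the 11 libraries and of 1.09 in replicate 4. Equal levels do not show that genes are alike in sequence, and whether these are near-identical copies was not tested. Such copies can share reads. How the authors counted reads that map to several genes is not given in the sources used here, so that separate levels of copies are uncertain.

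**Figure D3:**
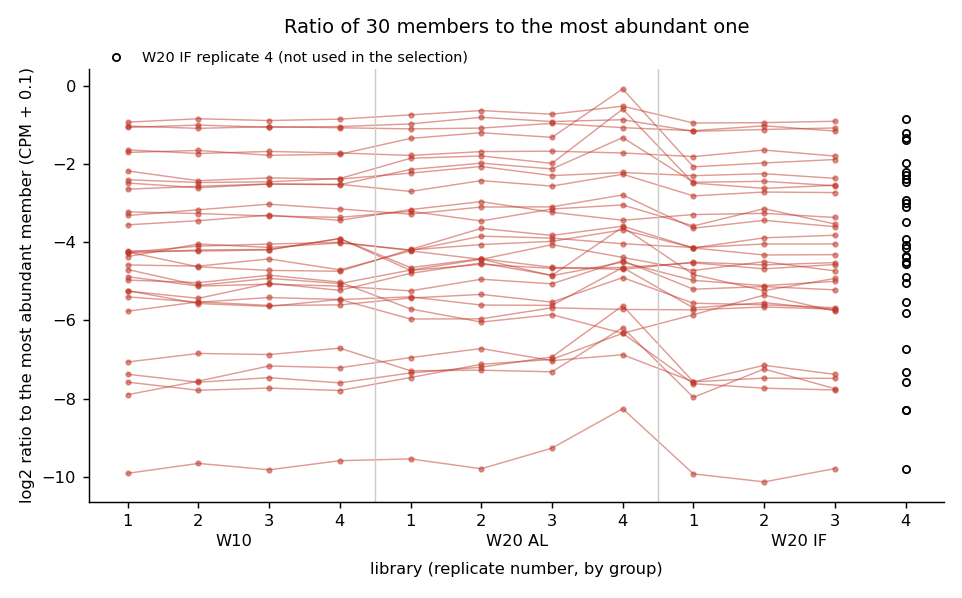
Log2 ratio of the CPM (+ 0.1) of 30 members of the near-constant set to that of the most abundant member, in each library, with a line for each gene and open circles for W20 IF replicate 4, which was not used in the selection. The lines run nearly flat across W10, W20 AL and W20 IF apart from a rise of several genes in W20 AL replicate 4, with a median shift of 0.38. The added 0.1 CPM raises ratios of genes at low levels in that library.

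The other 131 members were of lower level and smaller change. Their mean W10 levels had a median of 6.48 CPM, and the ratio to W20 AL had a median of 1.74 for W10 and of 2.04 for W20 IF. Their summed level was 2675 to 2992 CPM in W10, 1335 to 1541 CPM in W20 AL, 2844 to 3626 CPM in W20 IF replicates 1 to 3 and 2888 CPM in replicate 4. W10 replicate 3, in which the near-constant set was lowest of its group, had the highest summed level of these members, and W20 AL replicate 4 did not stand apart, with 1459 CPM. Their deviations from the group means had a median pairwise correlation of 0.0937 with each other and of -0.0559 with genes of the near-constant set. Their coefficients of variation had medians of 18.6% in W10, 16.3% in W20 AL and 24.4% in W20 IF.

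The gene of rank 7, the most abundant of the other members, had 378, 376, 456 and 388 CPM in W10, 216, 177, 211 and 217 CPM in W20 AL and 462, 534, 483 and 505 CPM in W20 IF. It was the only member with a coefficient of variation under 10% in every group, and its W20 IF libraries all lay above its W10 libraries, by 0.35 ± 0.11 on the log2 scale (± standard error), which was not called (adjusted p = 0.0908, edgeR's quasi-likelihood test). The gene of rank 13 had 98.7, 159, 208 and 235 CPM in W10, 64.1, 63.4, 66.8 and 76.0 CPM in W20 AL and 95.02, 217, 176 and 138 CPM in W20 IF. Here W10 replicate 1 was the lowest library of its group, whereas it was the highest throughout the near-constant set. The lowest W10 or W20 IF library was at least 1.5 times the highest W20 AL library in all 31 genes of the near-constant set and in 16 of the 131 others, and in 36 of the others it was under 1.1 times. In 7 of the other members W10 replicate 1 was at least 2 times the next library of its group. One of them, of rank 147, had 4.78 CPM there and 0.577 to 1.47 CPM in the other W10 libraries. This 1 fish raised its W10 mean and thus its ratio to W20 AL of 9.81. With 1 library left out of the means, 5 to 19 of the other members fell under a limit of the rule, the most without W20 AL replicate 2, and none of the near-constant set did. The wide distance of the near-constant set from W20 AL follows largely from how it was found.

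In edgeR's quasi-likelihood test over all 12 libraries, with calls at an adjusted p under 0.05 and a change of more than 1 on the log2 scale, the fall from W10 to W20 AL was called in 61 members, 30 of the near-constant set and 31 of the others. Over the genes tested, 0.466% were called lower in W20 AL, 84 genes in all. All 162 members passed the filter on low counts. Levels above W20 AL were called under fasting in 94 members, 31 of the near-constant set and 63 of the others, against 2.32% of the genes tested (419 genes). Both changes were called in 61 genes, of which 56 were members and 30 of the near-constant set. With the adjusted p alone, 101 members were lower in W20 AL than in W10 (1.02% of the genes tested) and 140 exceeded W20 AL under fasting (6.67%). As the rule used both contrasts, nothing is read from these counts against the shares over all genes.

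The size of the fall in the near-constant set was large and its error was large too. The selection used both contrasts with W20 AL, which favours large changes and low p-values in the members. The values and calls that follow are therefore a description. ENSNFUG00015003267 changed by -3.27 ± 0.62 on the log2 scale (± standard error) from W10 to W20 AL, with an adjusted p of 0.0318 in the same edgeR test, and by 3.08 ± 0.62 from W20 AL to W20 IF (adjusted p = 0.0123, edgeR). For ENSNFUG00015003376 these values were -3.07 ± 0.60 (adjusted p = 0.0340, edgeR) and 2.77 ± 0.59 (adjusted p = 0.0157). The gene of rank 7 had smaller changes with a smaller error, of -0.94 ± 0.11 (adjusted p = 6.38e-04, edgeR) and 1.28 ± 0.11 (adjusted p = 2.22e-05). The count of 61 members was 28 when W10 replicate 2 was left out of the fit and 31 when W10 replicate 3 was, with 8 and 13 of the near-constant set. The near-constant set had 18 calls when W10 replicate 4 was left out. The count of members was 34, 26 and 34 when W20 AL replicates 1, 2 and 3 were left out, with 9, 11 and 12 of the near-constant set. Each of these 6 libraries, left out alone, also took the fall of ENSNFUG00015003267 and ENSNFUG00015003376 above the threshold of 0.05, to an adjusted p of 0.0533 to 0.0786 (edgeR). The size of the fall stayed alike, at -3.51 to -3.25 and at -3.31 to -3.04 on the log2 scale. The p-values also depended on the method. With only the 8 libraries compared they were 0.0527 and 0.0539 (adjusted, edgeR), and 21 of the near-constant set were called. With the replicate number as a block they were 0.0764 and 0.0692 (adjusted, edgeR). DESeq2 gave adjusted p of 2.47e-06 and 6.59e-06 and called all 31. When W20 IF replicate 4 was left out, 59 members were called lower in W20 AL than at 10 weeks and 96 higher under fasting.

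The rule did not compare W20 IF with W10, the comparison that asks how far old fasted fish differ from young adults. It did use the levels of both groups, each of which had to exceed W20 AL. This limits how far either of them can lie below the other in a member. Counts and directions in this comparison are therefore in part set by the selection. Its limits were alike for both groups, apart from the minimum of 1 CPM in W10 and the unused W20 IF replicate 4. Of the 162 members, 2 were called (1.23%), both higher in W20 IF, while 1.66% of all genes tested were called in this contrast, 300 genes. With the adjusted p alone, 6 members differed, all of them higher in W20 IF, against 3.83% of all genes. The median log2 fold change was 0.07 over the members and -0.0038 over all genes tested, and 97 members were above 0. A member that was not called is not shown to be equal, since the standard error had a median of 0.23 over the members and of 0.53 in the near-constant set.

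In the near-constant set, the ratio of W20 IF (replicates 1 to 3) to W10 ran from 0.558 to 1.05 (median 0.843), and 27 of the 31 means were lower in W20 IF. None of the 31 was called, and DESeq2 called none. With the adjusted p alone (edgeR's quasi-likelihood test), none of them and 6 of the 131 other members differed, against 3.83% of all genes tested. As the 31 genes varied together from fish to fish, they are not 31 separate observations. Their log2 fold changes ran from -0.83 to 0.17. That of ENSNFUG00015003267 was -0.19 ± 0.57 (adjusted p = 0.923, edgeR) and that of ENSNFUG00015003376 was -0.30 ± 0.55 (adjusted p = 0.846). Without W10 replicate 1 these values were 0.15 and 0.01, and without W20 IF replicate 1 they were 0.0016 and -0.11. The sign of the difference is thus not settled. Among the other members the ratio ran from 0.320 to 2.24 (median 1.103), and 92 of 131 means were higher in W20 IF. Every W20 IF library (replicates 1 to 3) lay above every W10 library in 15 of them and below in none of the 162 members. Over all genes tested, 7.93% had all W20 IF libraries above and 8.32% had all below.

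**Figure D4:**
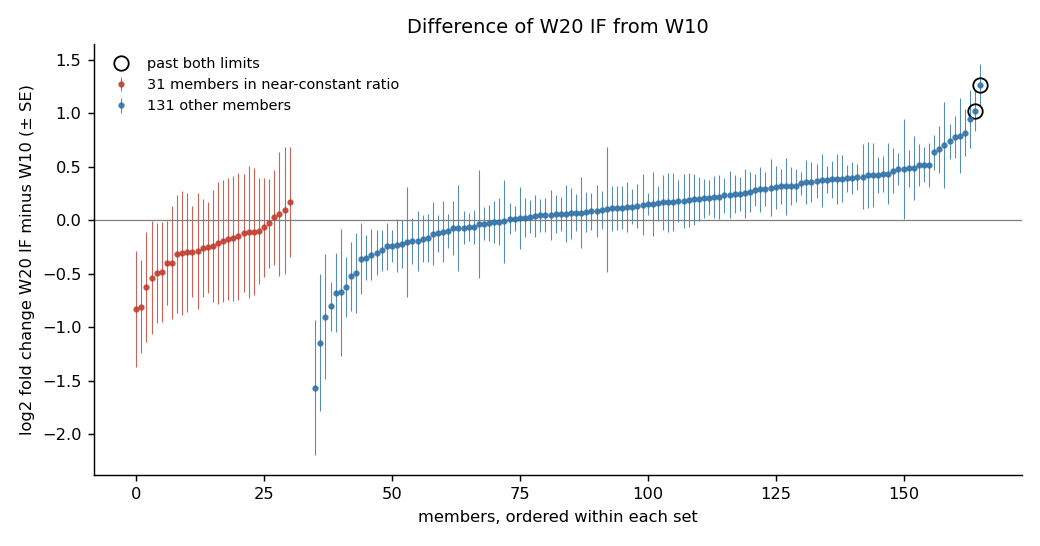
Log2 fold change from W10 to W20 IF with its standard error (edgeR, all 12 libraries) for the near-constant set (red) and the other members (blue), each ordered by value. Bars of the near-constant set are long and most cross 0, and the 2 ringed genes at the right are those past both limits, at 1.02 and 1.27.

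The members that were called stood above both other groups under fasting. ENSNFUG00015025414 had 4.62, 5.41, 7.13 and 4.92 CPM in W10, 2.65, 2.67, 3.66 and 2.37 CPM in W20 AL and 10.4, 14.2, 12.5 and 19.2 CPM in W20 IF, the last from 29 counts. Its W20 IF libraries did not overlap with those of W10, and the difference was 1.27 ± 0.20 on the log2 scale (± standard error) at an adjusted p of 0.00231 in the edgeR test. ENSNFUG00015007507 had 6.04, 9.86, 10.4 and 9.66 CPM in W10, 3.24, 3.57, 3.53 and 4.37 CPM in W20 AL and 15.9, 23.8, 14.9 and 16.5 CPM in W20 IF, the last from 25 counts. Its groups did not overlap either, with a difference of 1.02 ± 0.19 (adjusted p = 0.00727, edgeR). It fell to 0.87 without W10 replicate 1 and to 0.81 without W20 IF replicate 2, under the limit on the fold change, at adjusted p of 0.00855 and 0.0202. Against W20 AL their log2 fold changes were 2.20 and 2.28. These are larger than those against W10 by construction, since the rule puts W10 above W20 AL in every member.

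W20 IF replicate 4 gave levels that the selection had not used. The W20 AL libraries they are set against were selected to be low in the members, so that a higher share of members than of all genes lies above W20 AL by construction, and nothing is read from the shares over all genes that follow. In this library 127 of the 162 members (78.4%) lay above their highest W20 AL library, against 28.0% of all genes tested. These were all 31 genes of the near-constant set and 96 of the 131 others. Of the 64 members for which at least 10 counts would be found in replicate 4 at their mean W20 AL level, 55 lay above, against 23.4% of the 9224 genes of that depth. In 30 members, 1 of them of the near-constant set, replicate 4 held 3 counts or fewer, and in 6 it held 0. Counting error alone may keep their level there from being told from that of W20 AL. With replicate 4 as a group of its own in the edgeR model, 12 members were called higher than in W20 AL, 1 of the near-constant set and 11 of the others, while 0.760% of all genes were called higher. A single library has no spread of its own, and this fit assumes that it varies like the libraries of the other groups. The standard error had a median of 0.71 over the members, and the same selection favours calls in this direction.

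Set against the mean of W20 IF replicates 1 to 3, replicate 4 had a median ratio of 0.999 in the near-constant set and of 0.845 in the other members. Within 2-fold were 29 of 31 and 100 of 131. The same values over all genes were not taken. Members were selected to be high in replicates 1 to 3, which favours ratios under 1 in replicate 4. In this library the log2 ratio to the most abundant member was shifted by a median of -0.00077 from its mean over the 11 other libraries, from -1.28 to 1.51, and was within 2-fold in 27 of 30 genes. The summed level of the near-constant set came from 9244 counts there and that of the other members from 4367.

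**Figure D5:**
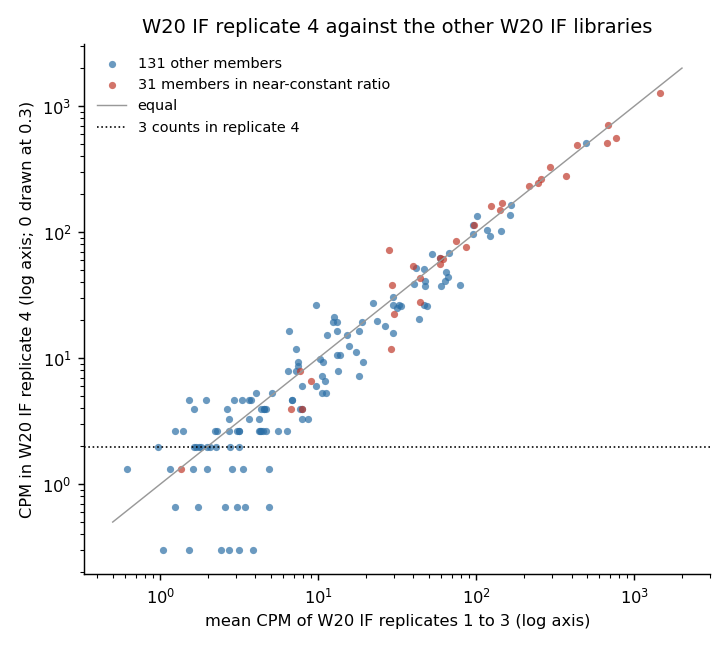
CPM in W20 IF replicate 4 against the mean CPM of W20 IF replicates 1 to 3 for the 162 members on log axes, with the line of equal levels and the level of 3 counts in replicate 4 (1.98 CPM, dotted). Members at higher levels lie along the line, and those with few counts scatter around and below it, with 6 at 0 drawn at 0.3.

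By a correlation of log2 CPM with the mean profile of the members over the 11 libraries, the 5 genes outside the rule most like it had Pearson's r of 0.925 to 0.956. Their ratios of W10 to W20 AL were 1.23 to 1.499 and those of W20 IF to W20 AL were 1.29 to 1.57, so that they failed the limit of 1.5 in at least 1 comparison. These correlations are across libraries that the members were selected on, and are given as a description.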

How the data were processed

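Counts of 12 directional poly(A) libraries from intestines of male N. furzeri were analysed, 4 each of W10, W20 AL and W20 IF, with groups taken from the labels. The study's methods give more fish than this for W10 and W20 AL. The authors used Trimmomatic for trimming and STAR for mapping to Nfu_20140520, and deposited whole-number counts per Ensembl gene from featureCounts, without normalization. Program versions and how multi-mapping reads were counted are not given in the sources used here. The labels number samples per group, and p-values set the difference between groups against an estimate of the spread between these samples. No pair of libraries of a group had identical values or differed by less than sampling noise.

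CPM are counts over the column sum. Tests used edgeR 4.0.16 (limma 3.58.1, R 4.3.3) with TMM, filterByExpr (minimum count 10, minimum total 15) and a robust quasi-likelihood fit of 1 model with 3 group means to all 12 libraries. Adjustment was after Benjamini and Hochberg over 18027 genes. Standard errors are the log2 fold change over the root of F. The script was tested on simulated data. Same-numbered libraries did not deviate together, and the numbers were not used to pair them. Alternatives were DESeq2 1.42.0, other scalings, filters and limits, a replicate block, and each library left out. Figures were drawn with matplotlib 3.10.9 in Python 3.11.15.

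The members, the lists and the tests were chosen with earlier results of these data known. Genes to be named were the 10 most abundant members, the 10 with the largest smaller ratio, those called between W20 IF and W10 and those nearest the limit; without gene names, at most 2 identifiers that fell and 2 that rose are printed, and the others are given by rank or as ranges. The genes of ranks 13, 22, 23, 147 and 149 were singled out after their values were seen.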

Additional observations from a re-analysis of the deposited data

Results flagged for a closer look

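In groups of 4 libraries, a library was looked at again when its gap to the nearest other one, as a share of the group's whole range, was above Dixon's 95% limit for 4 values. Of 30 groups, 5 did. Chance passes the limit in about 1 in 20 independent groups. These groups share libraries, and the genes in them were picked among the members, partly by their values. Nothing is therefore read from the 5 against that rate. W20 IF replicate 4 had 1512262 counts, where the next library had 24937470, and at least 1 count for 17059 genes, where the next had 22563. W10 replicate 1 had 6.04 CPM of ENSNFUG00015007507, and the other W10 libraries had 9.66 CPM or more. For the gene of rank 7, W10 replicate 3 was high with 456 CPM, where the next had 388 CPM, and W20 AL replicate 2 was low with 177 CPM, where the next had 211 CPM. The parts that depth or single fish play in these values were not tested.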

How the results depend on the processing

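The rule took 309 genes with a fold of 1.3, 67 with a fold of 2, 76 with at least 10 CPM in W10, 498 without the condition on single libraries, and 166 to 329 with each library left out; with TMM-scaled sizes 146 of the 162 members remained, and with all 4 W20 IF libraries 125 did. The near-constant set held 31 to 39 genes with a library left out, 33 (30 of them shared) against the member of rank 10, and 26 with a standard deviation under 0.5, all settings chosen after seeing the data. Between W20 IF and W10, 1 to 3 members were called with a library left out, and 6 without the limit on the fold change. Lower in W20 AL than in W10 were 26 to 63 members with a library left out, 101 without the limit on the fold change and 40 of the 85 tested with at least 10 counts in every library. Above W20 AL under fasting were 76 to 98 with a library left out and 56 under that filter, which tests fewer genes. DESeq2 called 2, 71 and 95 members in these comparisons. With the replicate number as a block 32 members were lower in W20 AL than in W10, 9 of them in the near-constant set, 2 differed between W20 IF and W10, and 89 exceeded W20 AL under fasting. Same-numbered libraries had deviations correlated by -0.15 to 0.08, and 2 of 12 libraries correlated best with their own number. These correlations over all genes showed no pairing, but cannot exclude one that acts on part of the genes. The log2 fold change of ENSNFUG00015003267 between W20 IF and W10 was -0.38 to 0.15 with a library left out, above 0 without W10 replicate 1 and, at 0.00, without W20 IF replicate 1, and that of ENSNFUG00015003376 was -0.50 to 0.012 (0.0121 without W10 replicate 1). The cause of these differences was not tested. The depth of W20 IF replicate 4 limits what it shows for members near or under 1.98 CPM.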
